A study of Homo sapiens with 114 samples.

Results

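The genes described here are 31 genes of the lysosome, the vacuolar proton pump and autophagy, taken by name from a given list and measured among 19775 genes. They comprise 7 lysosomal hydrolases or protective proteins (CTSA, CTSB, CTSD, CTSL, CTSZ, GLA and HEXA), 5 genes of the lysosomal membrane and of lipid and ion transport (LAMP1, LAMP2, NPC1, NPC2 and MCOLN1) and the transcription factor gene TFEB. The proton pump is represented by 3 genes of its membrane sector (ATP6V0D1, ATP6V0D2 and ATP6V0E1) and 5 genes of its cytosolic sector (ATP6V1A, ATP6V1B2, ATP6V1C1, ATP6V1D and ATP6V1H). Autophagy is represented by 2 receptors (SQSTM1 and NBR1), 3 members of the Atg8 family (MAP1LC3B, GABARAPL1 and GABARAPL2) and 5 genes of the machinery that forms the autophagosome (ULK1, BECN1, WIPI1, ATG5 and ATG7). All 31 were in the table, and they were chosen with earlier results of these data known.

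The study exposed HK-2 cells to 9 compounds to look for expression signatures of kidney toxicity. HK-2 is a single immortalized line of human proximal tubular epithelial cells, so all groups share that line. Total RNA was hybridised to Affymetrix arrays, 1 per culture, in 26 treated and 12 vehicle control groups of 3 biological replicates each. Compounds keep their abbreviations here, and a dose is called high or low as labelled.

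CdCl and Di were each given for 48 and 12 h and shared their control cultures. Aa was used in 2 doses, high and low, each for 48 and 24 h and with controls of its own. Kbr and Nnm were each given at both doses for 48 and 24 h and shared their controls. Ota was given at both doses for 72 and 24 h, with controls of its own. CsA was given for 48 and 12 h with controls of its own, and Fk and Ra were given for 48 and 12 h with shared controls. Control cells received the vehicle for the same time. Comparisons that share controls are not independent, and their values are given side by side.

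The lysosome is the acidic compartment in which hydrolases break down proteins, lipids and sugars delivered by endocytosis and autophagy, and the vacuolar ATPase pumps protons into it. In autophagy a membrane grows around cytoplasm with the help of ULK1, Beclin 1, WIPI and ATG proteins, and Atg8 family proteins on that membrane bind receptors such as p62, the product of SQSTM1. Proximal tubule cells take up filtered proteins and degrade them in lysosomes. TFEB and its relative TFE3 activate many lysosomal and autophagy genes through the palindromic CLEAR element in their promoters.

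Of the 31 genes, 22 matched at least 1 promoter window of RefSeq on build GRCh38.p14, reaching from 250 bases before to 50 bases after the start of the gene. These 22 genes had 29 windows, so counts of genes below are not directly comparable with shares of windows. The windows were searched on both strands for TCACGTGA, the core of the CLEAR element, and for CACGTG, the E-box that it contains. The core lay in the windows of 4 of the 22 genes, ATP6V0D1, CTSA, LAMP1 and MCOLN1, and in 0.98% of the 35116 windows of the table. The E-box lay in the windows of these 4 genes and of CTSD, and in 7.26% of all windows. The search also covered TGACNNNGC of the antioxidant response element, where N is any base, and TGATGNAAT, the CHOP-ATF composite site. TGACNNNGC lay in the windows of 9 of the 22 genes, among them ATP6V0D1, CTSA and LAMP1, and in 13.3% of all windows. TGATGNAAT lay in those of 0 of the genes and in 0.991% of all windows. The 4 sequences with the CLEAR core are shown because all 4 genes rose with CdCl at 48 h and were higher with CdCl than with Di. They run 5′ to 3′ on the strand of the gene, with every E-box and CLEAR core in capitals.
ATP6V0D1, chr16:67481108-67481407, minus strand: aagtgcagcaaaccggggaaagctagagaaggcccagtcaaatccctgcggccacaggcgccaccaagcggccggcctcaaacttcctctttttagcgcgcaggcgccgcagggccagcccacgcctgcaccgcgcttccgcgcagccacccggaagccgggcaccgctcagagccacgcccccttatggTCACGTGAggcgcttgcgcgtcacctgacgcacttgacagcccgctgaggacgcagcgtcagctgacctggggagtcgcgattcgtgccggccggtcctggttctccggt
CTSA, chr20:45891085-45891384, plus strand: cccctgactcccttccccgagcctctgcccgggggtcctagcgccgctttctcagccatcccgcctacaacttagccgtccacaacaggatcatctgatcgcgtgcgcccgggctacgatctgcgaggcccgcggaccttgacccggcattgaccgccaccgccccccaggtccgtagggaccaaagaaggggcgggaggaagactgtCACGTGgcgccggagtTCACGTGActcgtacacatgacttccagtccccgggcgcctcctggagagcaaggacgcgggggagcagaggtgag
LAMP1, chr13:113296989-113297288, plus strand: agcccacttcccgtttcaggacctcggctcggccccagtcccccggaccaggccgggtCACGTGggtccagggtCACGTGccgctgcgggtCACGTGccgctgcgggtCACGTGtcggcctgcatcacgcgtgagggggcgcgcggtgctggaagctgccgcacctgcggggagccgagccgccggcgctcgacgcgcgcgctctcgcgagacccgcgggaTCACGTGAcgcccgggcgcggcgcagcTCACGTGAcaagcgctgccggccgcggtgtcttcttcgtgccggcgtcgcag
MCOLN1, chr19:7522374-7522673, plus strand: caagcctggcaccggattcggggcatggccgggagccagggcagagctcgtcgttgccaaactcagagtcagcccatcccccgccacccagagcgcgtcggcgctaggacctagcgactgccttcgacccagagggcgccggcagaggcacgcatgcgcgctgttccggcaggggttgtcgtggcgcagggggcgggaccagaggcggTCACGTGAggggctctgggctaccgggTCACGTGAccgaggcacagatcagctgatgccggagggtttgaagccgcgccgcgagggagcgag
The CLEAR core began 60 bases before the start in ATP6V0D1, 26 bases before it in CTSA, 29 and 2 bases before it in LAMP1, and 42 and 15 bases before it in MCOLN1. Of the 18 matched genes without the core, 11 rose and 1 fell with CdCl at 48 h, and 3 were higher and 4 lower with CdCl than with Di. With Di at 48 h, 1 of the 4 genes with the core rose and 2 fell, and of those without it 11 rose and 1 fell. With CdCl at 12 h, 1 of the 4 rose and 0 fell, and of the others 10 rose and 3 fell. The shares of all genes called are given with each comparison below, the sequences were chosen after these calls were seen, and no difference between genes with and without the core was tested. A match is a description of the letters and does not show that a factor bound there.

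Values are log2 units of the authors' GCRMA normalization, in which background lies near 2 to 3. Levels of different genes are not compared, since each probe set has its own response. Differences are between means of 3 arrays and are given ± standard error, where the error comes from all arrays that share a control family. A gene was called higher or lower when its limma p, adjusted over every gene tested, was under 0.05. The array medians ranged from 2.87 to 3.13. Epithelial keratins and EPCAM were high on all arrays (KRT8 10.28 to 12.43, EPCAM 11.71 to 13.97), and CDH1, the gene of E-cadherin, ranged from 3.03 to 9.51. The defining apical proximal tubule genes LRP2, CUBN, AQP1, SLC34A1 and ANPEP lay below 4 throughout, and GGT1 lay between 3.38 and 5.12. Of 9 markers of leukocytes, endothelium and stroma, COL1A1 alone was clearly measured (4.90 to 9.05). Fewer cells of a kind and less RNA per cell cannot be told apart in such bulk RNA.

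Over the 26 treated groups, 792 tests of these genes gave 120 higher calls (15.2%) and 91 lower calls (11.5%), against 11.8% higher and 15.1% lower over 286612 tests of all genes. CdCl and Di at 48 h had the largest numbers of higher calls, 20 and 17. Both counts include ATP6V0D2, which entered the test only through the arrays where it was high. GABARAPL1 had the most higher calls of the 31 genes, 11 beside 1 lower, followed by CTSL with 10 higher and 0 lower. ATG7 was called lower in 9 groups and higher in 0, and ATP6V1D was lower in 9 and higher in 3. The ATG7 calls are those of its brightest probe set, and other probe sets of the gene, described below, did not all fall. The heatmap of all members shows these calls.

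**Figure D1:**
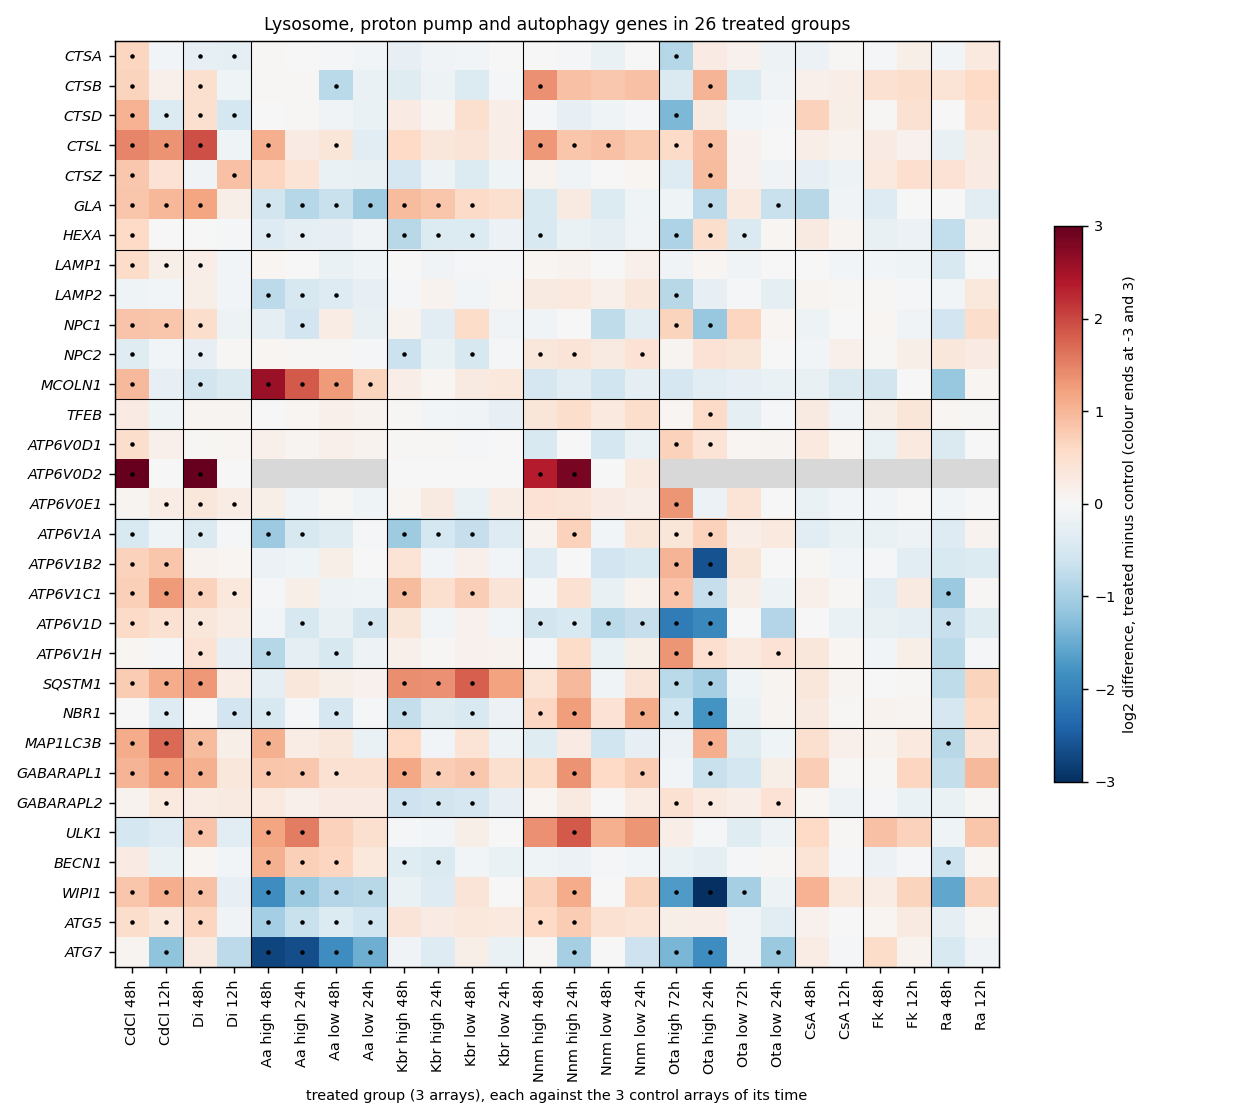
Log2 difference between each treated group (columns) and the control of its time, for the 31 genes (rows, by role), with red for higher and blue for lower than the control, and a dot where the gene was called. Grey cells were not tested. The first columns, CdCl and Di at 48 h, hold 20 and 17 higher calls, and CsA and Fk hold none.

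CdCl at 48 h was compared with its controls first. Of the 31 genes, 20 rose and 2 fell, 71% against 46.4% of all genes called either way, 22.9% higher and 23.5% lower. One of the 20 is ATP6V0D2, which entered the test only through the arrays where it was high and so had to differ. The median change was 0.60, beside -0.015 over all genes. All 7 hydrolase or protective protein genes rose, as did 3 of 5 membrane and transport genes, 5 of 8 pump genes, and 5 of 10 autophagy genes. Di at 48 h raised 17 of the 31 genes and lowered 4, 67.7% against 47.4% of all genes, 21.4% higher and 25.9% lower, with a median of 0.33 beside -0.019. The 17 also include ATP6V0D2, which had to differ for the same reason. Of the hydrolase or protective protein genes 4 rose and 1 fell with Di, and of the 10 autophagy genes 6 rose. Between the compounds at 48 h, 9 genes were higher and 7 lower with CdCl, 51.6% against 42.6% of all genes, 23.6% higher and 19% lower. At this time the ACTB signal at the 3 prime end exceeded that at the 5 prime end, a difference that grows as RNA degrades, by 1.45 to 1.92 with CdCl and 1.54 to 1.74 with Di, overlapping the 1.46 to 1.68 of the controls. Of the 7 epithelial markers, 2 rose and 2 fell with CdCl, and 2 rose and 4 fell with Di, and their part in these results was not tested.

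Several genes rose with both compounds. CTSL, which encodes the cysteine protease cathepsin L, stood at 11.01, 10.70 and 11.05 with CdCl and at 11.36, 11.44 and 11.40 with Di, against 9.44, 9.49 and 9.47 in the controls. All treated arrays lay above the controls, and the Di arrays lay above the CdCl arrays. The rise was 1.45 ± 0.11 with CdCl (2.74-fold, adjusted p = 5.38e-08) and 1.93 ± 0.11 with Di (3.82-fold, adjusted p = 1.77e-09), and CdCl was lower than Di by 0.48 (adjusted p = 0.00232). GLA, which encodes alpha-galactosidase A, was 10.78, 10.88 and 10.94 with CdCl and 11.25, 11.20 and 11.20 with Di, against 10.03, 9.98 and 10.08 in the controls. It followed the same order, with rises of 0.84 and 1.19 (adjusted p = 1.16e-07 and 1.97e-09) and a difference of -0.35 between CdCl and Di (adjusted p = 0.00071).

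SQSTM1, which encodes the ubiquitin-binding autophagy receptor p62, measured 13.42, 13.07 and 13.13 with CdCl and 13.81, 13.71 and 13.78 with Di, against 12.52, 12.46 and 12.38 in the controls. No arrays overlapped between the groups. The rise was 0.75 ± 0.09 with CdCl and 1.31 ± 0.09 with Di, and CdCl was lower than Di by 0.56 (adjusted p = 0.000166). MAP1LC3B, which encodes the autophagosome protein LC3B, was 13.04, 12.90 and 12.97 with CdCl and 12.80, 12.80 and 12.83 with Di, against 11.81, 11.94 and 11.80 in the controls. The CdCl arrays were the highest, but the difference from Di of 0.16 was not called (95% interval, unadjusted as are the others given, -0.007 to 0.33). GABARAPL1, another Atg8 family gene, was 9.18, 9.08 and 9.06 with CdCl and 9.12, 9.20 and 9.15 with Di, against 8.07, 8.16 and 8.02 in the controls. It rose by 1.02 and 1.07, and the compounds overlapped (difference -0.052, interval -0.34 to 0.237).

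WIPI1, which encodes a phosphoinositide-binding protein of early autophagosomes, was 11.13, 11.01 and 11.13 with CdCl and 11.24, 11.10 and 11.07 with Di, against 10.34, 10.12 and 10.29 in the controls. It rose by 0.84 and 0.88, with a difference of -0.045 between the compounds (interval -0.245 to 0.154). ATG5, which encodes a part of the complex that attaches Atg8 proteins to lipid, measured 10.55, 10.53 and 10.51 with CdCl and 10.58, 10.69 and 10.68 with Di, against 10.00, 10.02 and 9.99 in the controls. It rose by 0.53 and 0.64, and all treated arrays were above the controls. A second probe set of ATG5 rose with CdCl (0.63) but not with Di (-0.19, adjusted p = 0.278).

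CTSB, which encodes cathepsin B, was 11.07, 11.22 and 11.01 with CdCl and 10.90, 10.93 and 10.89 with Di, against 10.38, 10.43 and 10.48 in the controls. It rose by 0.67 and 0.48, and the difference of 0.19 between the compounds was not called (interval 0.016 to 0.368). CTSD, which encodes the aspartic protease cathepsin D, was 10.21, 10.29 and 10.02 with CdCl and 9.58, 9.68 and 9.59 with Di, against 9.04, 9.18 and 9.15 in the controls. The 3 groups did not overlap, and CTSD rose by 1.05 ± 0.11 with CdCl and by 0.49 ± 0.11 with Di, 0.56 more with CdCl (adjusted p = 0.00059). NPC1, which encodes the cholesterol transporter of the lysosomal membrane, measured 12.53, 12.57 and 12.47 with CdCl and 12.26, 12.11 and 12.20 with Di, against 11.56, 11.70 and 11.73 in the controls. It rose by 0.86 and 0.53, and CdCl was higher by 0.33 (adjusted p = 0.00257). Averaged over all its probe sets, this difference between the compounds was -0.0062 and was not called.

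LAMP1, which encodes an abundant lysosomal membrane glycoprotein, was 14.11, 14.03 and 13.98 with CdCl and 13.66, 13.70 and 13.71 with Di, against 13.53, 13.50 and 13.45 in the controls. It rose by 0.55 with CdCl and by 0.20 with Di (adjusted p = 6.19e-06 and 0.0213), and CdCl was higher than Di by 0.35 (adjusted p = 0.000474). The small rise with Di was no longer called without Di replicate 2 or 3 or control replicate 3 (0.17 to 0.19, adjusted p = 0.0552 to 0.071). Among the pump genes, ATP6V1C1 measured 12.50, 12.32 and 12.57 with CdCl and 12.53, 12.38 and 12.39 with Di, against 11.70, 11.74 and 11.81 in the controls. It rose by 0.71 and 0.68, while a dimmer probe set rose by 0.39 with CdCl and changed by -0.069 with Di (adjusted p = 0.578). ATP6V1D was 12.07, 12.18 and 12.08 with CdCl and 12.04, 11.86 and 11.71 with Di, against 11.60, 11.41 and 11.61 in the controls. It rose by 0.57 and 0.33, and the call with Di was lost without Di replicate 1 or control replicate 2 (adjusted p = 0.0564 and 0.0508). The C subunit encoded by ATP6V1C1 regulates the assembly of the pump, and the D subunit is part of its central rotor.

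ATP6V0D2, which encodes a tissue-restricted form of the pump's d subunit, stood at 5.97, 6.28 and 6.61 with CdCl and at 6.26, 6.48 and 6.41 with Di, against 2.27, 2.24 and 2.26 in the controls. All treated arrays were measured above background and all controls were at it. The difference from background was 4.03 with CdCl and 4.13 with Di, a distance set in part by where the background correction places unexpressed genes. The compounds overlapped, with a difference of -0.095 (interval -0.339 to 0.149). Both other probe sets of the gene gave differences of 3.15 to 3.65, and 1 of them was higher with CdCl than with Di by 0.50 (adjusted p = 0.0036). At 12 h all arrays of CdCl, Di and the controls lay between 2.24 and 2.28.

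**Figure D2:**
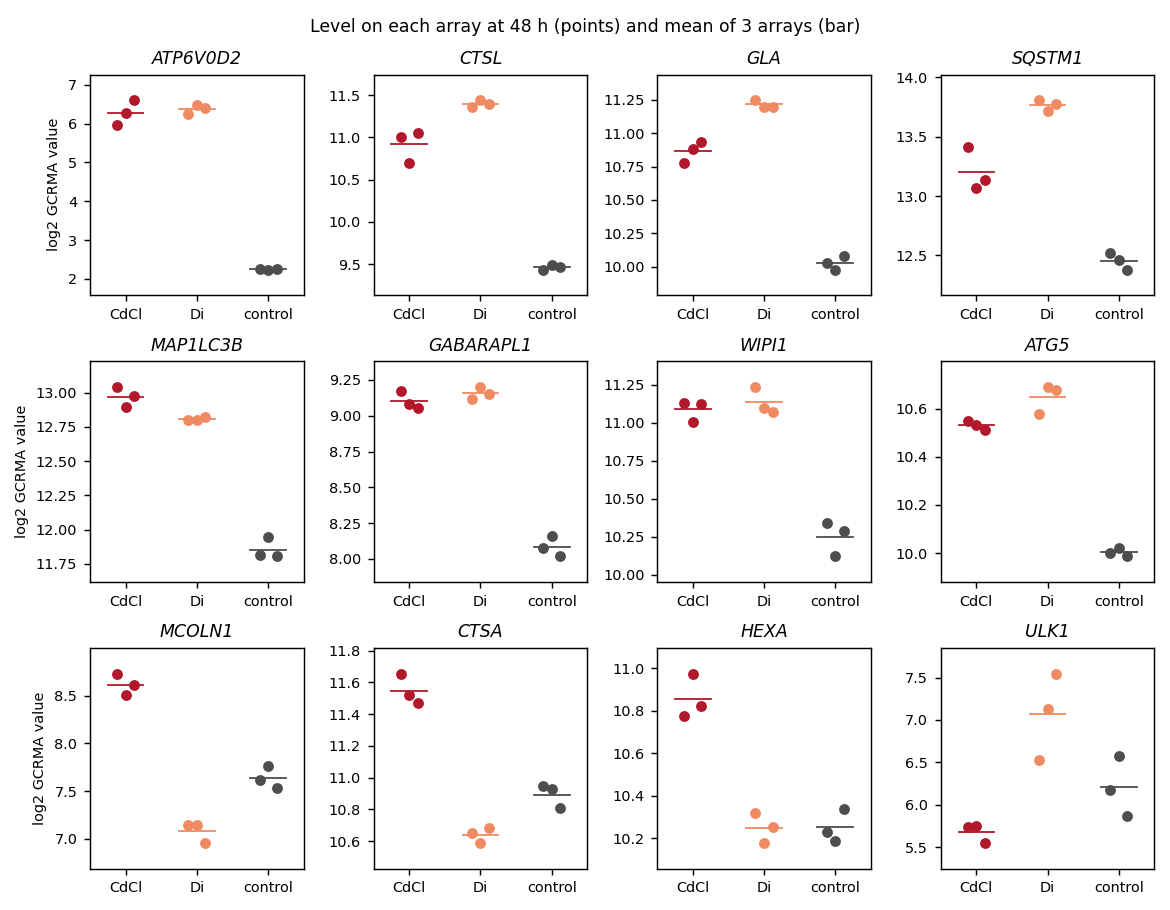
Log2 level on each of the 3 arrays with CdCl, with Di and in the controls at 48 h (points) with the mean (bar), for 12 of the genes on separate axes that do not start at 0. ATP6V0D2 lies near 6 with both compounds and near 2 in the controls, and MCOLN1 lies above the controls with CdCl and below them with Di.

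Other genes separated the compounds. MCOLN1, which encodes the lysosomal calcium channel mucolipin 1, was 8.73, 8.51 and 8.62 with CdCl and 7.14, 7.15 and 6.95 with Di, against 7.61, 7.76 and 7.53 in the controls. The CdCl arrays lay above the controls and the Di arrays below them. It rose by 0.98 ± 0.18 with CdCl (adjusted p = 0.000427) and fell by 0.56 ± 0.18 with Di (adjusted p = 0.0204), a difference of 1.54 ± 0.18 (2.9-fold, adjusted p = 1.03e-05). The fall with Di was no longer called without Di replicate 3 or control replicate 2 (-0.49 in both, adjusted p = 0.0716 and 0.0722). CTSA, which encodes the protective protein of the lysosomal galactosidase and sialidase complex, was 11.65, 11.52 and 11.47 with CdCl and 10.65, 10.59 and 10.69 with Di, against 10.95, 10.93 and 10.81 in the controls. It likewise rose with CdCl by 0.65 and fell with Di by 0.25 (adjusted p = 4.88e-06 and 0.0123), and the difference was 0.91 ± 0.08 (adjusted p = 3.14e-07).

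HEXA, which encodes the alpha subunit of beta-hexosaminidase, was 10.77, 10.97 and 10.82 with CdCl and 10.32, 10.18 and 10.25 with Di, against 10.23, 10.19 and 10.34 in the controls. It rose by 0.60 with CdCl, differed by -0.003 with Di, and was 0.61 higher with CdCl than with Di (adjusted p = 0.00283). CTSZ, which encodes the carboxypeptidase cathepsin Z, measured 8.17, 7.83 and 8.45 with CdCl and 6.96, 7.14 and 7.58 with Di, against 7.09, 7.27 and 7.64 in the controls. Its rise of 0.82 ± 0.25 with CdCl (adjusted p = 0.0155) was not called without CdCl replicate 3 (0.67, adjusted p = 0.0697) or control replicate 1 (0.70, adjusted p = 0.0657). CdCl was 0.92 higher than Di in this gene (adjusted p = 0.00858).

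ATP6V1B2, which encodes the B2 subunit of the pump's catalytic ring, was 10.90, 10.79 and 10.93 with CdCl and 10.28, 10.24 and 10.37 with Di, against 10.20, 10.28 and 10.07 in the controls. The CdCl arrays stood above both other groups, which overlapped, and the rise was 0.69 with CdCl (adjusted p = 8.12e-06) and 0.58 relative to Di (adjusted p = 6.32e-05). ATP6V0D1, which encodes the common form of the d subunit, was 12.48, 12.51 and 12.37 with CdCl and 12.06, 12.00 and 11.88 with Di, against 11.91, 11.91 and 11.98 in the controls. It rose by 0.52 with CdCl and was 0.48 higher than with Di (adjusted p = 0.00039), whereas Di differed from the controls by 0.045 (adjusted p = 0.71).

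Fewer genes were higher with Di than with CdCl. ULK1, which encodes the kinase that starts autophagosome formation, was 5.74, 5.75 and 5.55 with CdCl and 6.53, 7.13 and 7.55 with Di, against 6.18, 6.57 and 5.87 in the controls. The Di arrays spread over about a log2 unit and 1 of them lay within the control range. ULK1 rose by 0.86 ± 0.24 with Di (adjusted p = 0.00805), differed by -0.53 ± 0.24 with CdCl (adjusted p = 0.0851), and was lower with CdCl than with Di by 1.39 ± 0.24 (adjusted p = 0.0003). ATP6V1H, a regulatory subunit of the pump, measured 10.43, 10.39 and 10.33 with CdCl and 10.74, 10.75 and 10.75 with Di, against 10.37, 10.21 and 10.40 in the controls. ATP6V0E1, a small subunit of the membrane sector, was 12.60, 12.72 and 12.67 with CdCl and 12.88, 12.95 and 12.94 with Di, against 12.62, 12.54 and 12.61 in the controls. In both genes the Di arrays were the highest. They rose with Di by 0.42 and 0.34, and CdCl was lower than Di by 0.36 and 0.26 (adjusted p = 0.00162 and 0.00305). For ATP6V0E1 the difference between the compounds was called on 1 of 6 other probe sets and not on the other 5.

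LAMP2, which encodes a second lysosomal membrane glycoprotein and a receptor of chaperone-mediated autophagy, gave no single answer. Its brightest probe set was 12.32, 12.13 and 12.47 with CdCl and 12.53, 12.69 and 12.60 with Di, against 12.38, 12.60 and 12.33 in the controls. CdCl was lower than Di by 0.30 there (adjusted p = 0.0206), a call lost without replicate 2 of either compound (adjusted p = 0.103 and 0.0789). Its other 3 probe sets gave the opposite direction, with CdCl above Di by 0.27, 0.30 and 0.91 (adjusted p = 0.00679, 0.0181 and 2.05e-05). LAMP2 has splice forms with different ends, and which of them each probe set reads was not tested.

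NPC2, which encodes the soluble partner of NPC1, fell with both compounds. It was 11.80, 11.90 and 11.75 with CdCl and 11.95, 11.92 and 11.88 with Di, against 12.19, 12.14 and 12.19 in the controls. ATP6V1A, the catalytic subunit of the pump, was 11.87, 11.63 and 11.80 with CdCl and 11.80, 11.84 and 11.73 with Di, against 12.18, 12.23 and 12.29 in the controls. All treated arrays of both genes lay below the controls. NPC2 fell by 0.35 and 0.26 and ATP6V1A by 0.47 and 0.44, and neither gene was called between the compounds. The remaining genes TFEB, NBR1, GABARAPL2, BECN1 and ATG7 were not called at 48 h, with differences of 0.016 to 0.26 for CdCl and 0.013 to 0.27 for Di. Further probe sets of TFEB and NBR1 were called with Di, at -0.28 and 0.32 (adjusted p = 0.0444 and 0.0411). For ATG7, 2 further probe sets were called with CdCl in opposite directions, at -1.02 and 0.90 (adjusted p = 0.00966 and 0.0169).

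**Figure D3:**
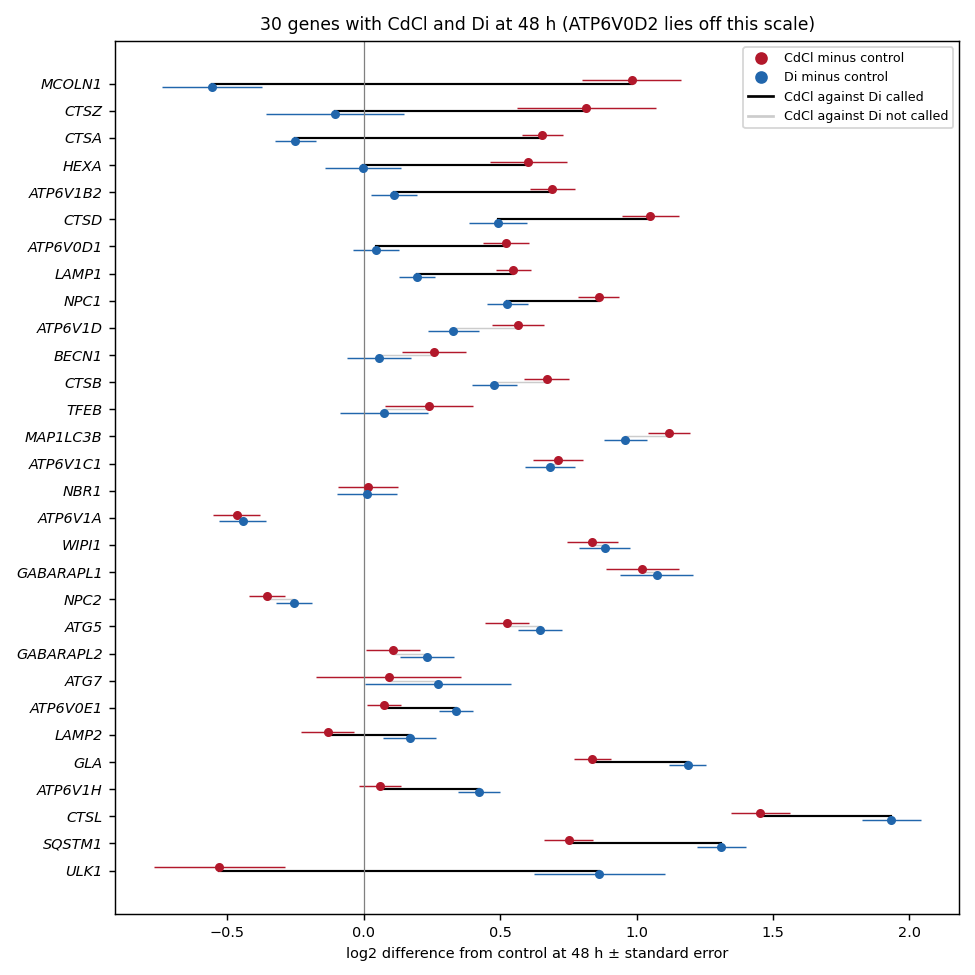
Log2 difference from the control at 48 h ± standard error with CdCl (red) and with Di (blue) for 30 genes, ordered by the difference between the compounds, with a black line where that difference was called. MCOLN1 is at the top at 0.98 with CdCl and -0.56 with Di, and ULK1 at the bottom at -0.53 and 0.86.

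Other genes of the same pathways were counted at 48 h. Their lists were drawn up from general knowledge, with earlier results of these data known. Their counts stand beside 22.9% of all genes higher and 23.5% lower with CdCl, 21.4% and 25.9% with Di, and 23.6% and 19% between CdCl and Di. Of 26 further lysosomal hydrolases tested, CdCl raised 7 and lowered 8, Di raised 3 and lowered 13, and 11 were higher and 4 lower with CdCl than with Di. IDS, which encodes iduronate 2-sulfatase, averaged 10.8 with CdCl against 9.23 in the controls and was higher by 1.57 ± 0.11, and by 1.35 relative to Di. GAA, which encodes acid alpha-glucosidase, averaged 5.46 with CdCl and 4.34 with Di, a difference of 1.12 (adjusted p = 0.00177). CTSF, which encodes cathepsin F, fell by 0.99 with CdCl and 1.17 with Di, and GM2A, which encodes the GM2 activator protein, fell by 1.13 with Di.

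Of 14 further membrane genes tested, 5 rose and 2 fell with CdCl, 4 rose and 4 fell with Di, and 4 were higher and 3 lower with CdCl than with Di. The cystine exporter gene CTNS rose by 1.11 with CdCl and was 0.86 higher than with Di, and SLC17A5, which encodes the lysosomal sialic acid exporter, fell by 0.92 with CdCl. LAMP3 averaged 8.80 with Di against 6.67 in the controls, a rise of 2.13 ± 0.11, and was lower with CdCl than with Di by 2.08 (adjusted p = 3.43e-09). OSTM1, which encodes a partner of a lysosomal chloride transporter, rose by 0.99 with Di. Of 12 further pump genes tested, 4 rose and 1 fell with CdCl, 3 rose and 3 fell with Di, and 5 were higher and 0 lower with CdCl than with Di. ATP6V1E1 rose by 0.73 with CdCl, and ATP6V0A2 rose by 1.34 with Di. ATP6V1G2 averaged 3.25 with CdCl and 2.92 with Di, against 5.02 in the controls, and fell by 1.77 and 2.10. Between the compounds ATP6V1E2 was 1.26 and ATP6V0E2 0.95 higher with CdCl.

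Of 41 further autophagy genes tested, 14 rose and 6 fell with CdCl, 15 rose and 6 fell with Di, and 8 were higher and 9 lower with CdCl than with Di. RUBCN, which encodes an inhibitor of late autophagy steps, rose by 1.09 with CdCl and 1.44 with Di. PLEKHM1, which encodes an adaptor for fusion with lysosomes, rose by 1.56 with Di. TP53INP1 fell by 0.91 with CdCl and was 1.21 lower than with Di, and the protease gene ATG4C was 0.87 higher with CdCl than with Di. Of 16 genes of nutrient sensing and of the TFEB family tested, 4 rose and 2 fell with CdCl, 5 rose and 5 fell with Di, and 5 were higher and 2 lower with CdCl than with Di. TFE3, a relative of TFEB, averaged 10.8 with CdCl and 10.6 with Di, against 9.47 in the controls, rises of 1.34 ± 0.10 and 1.16 ± 0.10. MITF, also of that family, fell by 1.08 with Di and was 0.75 higher with CdCl than with Di. RRAGB, which encodes a small GTPase that recruits mTORC1 to lysosomes, fell by 0.96 with CdCl (adjusted p = 0.0399), averaging 3.77 against 4.74 in the controls, and FNIP2 was 0.98 higher with CdCl than with Di.

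At 12 h more of the genes were called with CdCl than with Di, as was so over all genes. CdCl raised 14 of the 31 genes and lowered 3, 54.8% against 48.7% of all genes, 14.5% higher and 34.3% lower. Di raised 3 and lowered 3, 19.4% against 11.8% of all genes, 3.61% higher and 8.23% lower. These calls fell to 2 without control replicate 3 and to 3 without Di replicate 3 or control replicate 2. Directly, 15 genes were higher with CdCl than with Di and 0 were lower, 48.4% against 41.1% of all genes, 15.2% higher and 25.9% lower. The ACTB difference at 12 h was 1.66 to 1.84 with CdCl and 1.23 to 1.55 with Di, against 1.82 to 2.09 in the controls, and its part in these results was not tested.

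MAP1LC3B was 12.29, 12.25 and 12.44 with CdCl and 10.85, 10.65 and 10.89 with Di at 12 h, against 10.69, 10.58 and 10.60 in the controls. The CdCl arrays stood clear of both other groups, and the rise was 1.70 ± 0.08 (3.26-fold, adjusted p = 3.49e-10), 1.53 above Di. CTSL was 10.98, 10.94 and 10.99 with CdCl and 9.59, 9.28 and 9.64 with Di, against 9.63, 9.79 and 9.47 in the controls. ATP6V1C1 was 12.27, 12.36 and 12.38 with CdCl and 11.31, 11.41 and 11.38 with Di, against 11.26, 11.01 and 10.90 in the controls. CTSL rose by 1.34 and ATP6V1C1 by 1.28 with CdCl, and with Di CTSL overlapped the controls while ATP6V1C1 rose by 0.31 (adjusted p = 0.0415). A dimmer probe set of ATP6V1C1 fell with Di at 12 h (-0.36, adjusted p = 0.0229). ATG7 fell with CdCl by 1.22 ± 0.27 at 12 h, measuring 5.77, 6.35 and 5.79 against 7.10, 7.33 and 7.14 in the controls, but another probe set of ATG7 gave a difference of 0.26.

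The responses were then compared between times, each relative to its own controls. With CdCl, 12 genes rose at both 48 and 12 h, 0 fell at both, and CTSD rose at 48 h but fell at 12 h. With Di, ATP6V0E1 and ATP6V1C1 were called higher at both times, CTSA fell at both, and CTSD again rose at 48 h and fell at 12 h. The share of all genes called at both times is not given here, so these counts have no background beside them. For both ATP6V0E1 and ATP6V1C1 the call at 12 h was lost when 5 of the 6 arrays were left out in turn, and the value at 12 h was -0.026 for ATP6V0E1 on the mean of all its probe sets and -0.36 for the dimmer probe set of ATP6V1C1. A test of the difference itself called 9 genes with a higher and 4 with a lower response to CdCl at 48 than at 12 h, 41.9% against 30.4% of all genes, 21.1% higher and 9.34% lower. For Di it called 17 higher and 3 lower, 64.5% against 33.6% of all genes, 17.5% higher and 16.2% lower. Both counts of higher responses include ATP6V0D2, which entered the test only through its arrays at 48 h and so had to differ. MAP1LC3B, ATP6V1C1 and SQSTM1 had a lower response to CdCl at 48 h than at 12 h, by 0.58, 0.57 and 0.37, and a higher response to Di, by 0.79, 0.37 and 1.09. For SQSTM1 with CdCl, the mean of all probe sets gave a difference of 0.026, which was not called. CTSL differed between times by 2.07 ± 0.15 with Di (adjusted p = 1.36e-07) and by 0.12 ± 0.15 with CdCl (adjusted p = 0.608). For MCOLN1 the difference between times was 1.24 with CdCl (adjusted p = 0.00227) and -0.13 with Di (adjusted p = 0.747).

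**Figure D4:**
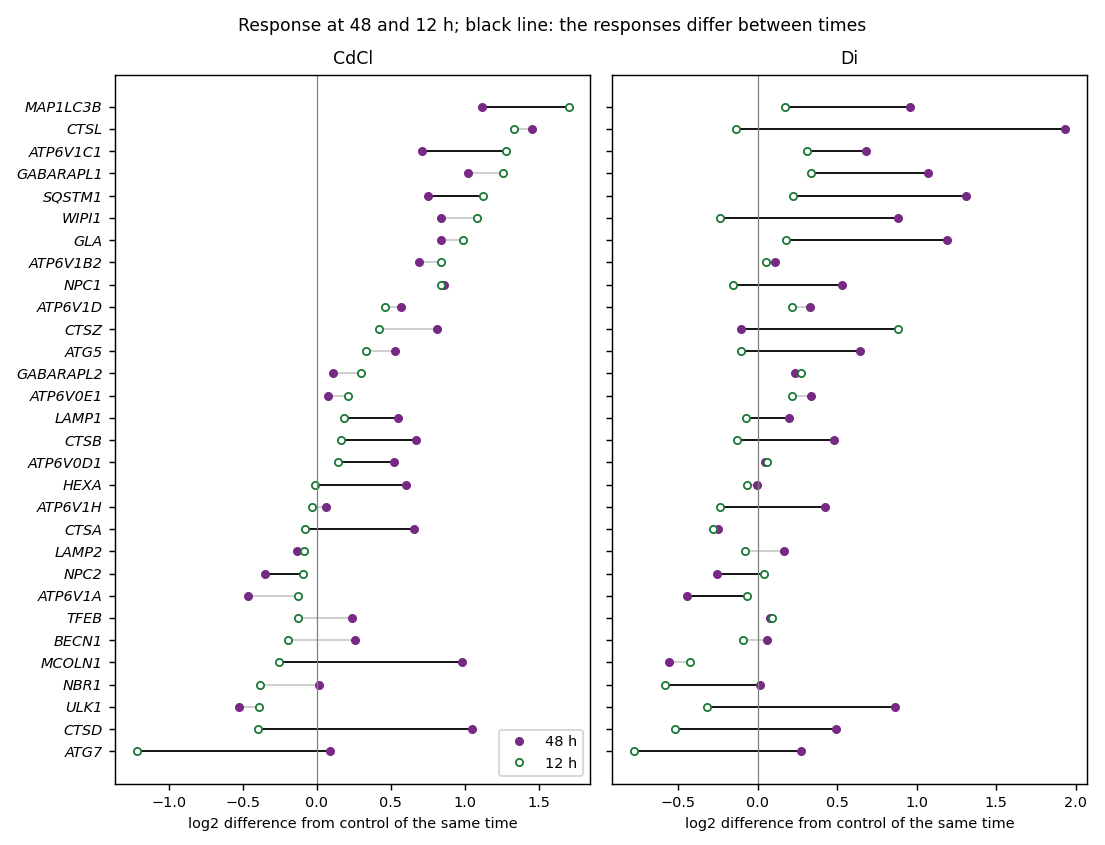
Log2 difference from the control of the same time at 48 h (filled) and 12 h (open) for 30 genes with CdCl (left) and Di (right), with a black line where the response differed between times. CTSL with Di lies at 1.93 at 48 h and at -0.13 at 12 h, and with CdCl it lies at 1.45 and 1.34.

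With Aa at the high dose, ATG7, WIPI1 and ATG5 of the 5 genes of the autophagosome machinery fell, while ULK1 and BECN1 of that group, and MCOLN1, rose, at both times. At the high dose 6 of 30 genes tested rose and 9 fell at 48 h, 50% against 64.3% of all genes, 29.8% higher and 34.5% lower. At 24 h 4 rose and 9 fell, 43.3% against 49.9%, 26% higher and 23.9% lower. At the low dose 4 rose and 8 fell at 48 h, 40% against 37% of all genes, 17.7% higher and 19.3% lower. At 24 h 1 rose and 5 fell, 20% against 23.2%, 10.2% higher and 13% lower. With the replicate number as a block, which this family supports, the low dose at 24 h gave 10 calls in place of 6. At 48 h with the high dose the ACTB difference was 1.14 to 1.69, against 0.771 to 1.15 in the controls, and of the 7 epithelial markers 1 rose and 5 fell. Their part in these results was not tested.

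MCOLN1 was 9.69, 9.44 and 9.77 with the high dose of Aa at 48 h, and 8.26, 8.08 and 8.64 with the low dose, against 7.17, 6.71 and 7.25 in the controls. At 24 h it was 9.36, 8.91 and 9.00 with the high and 8.29, 7.41 and 8.10 with the low dose, against 7.16, 7.29 and 7.31 in the controls. All 12 treated arrays lay above the controls of their time. The rises were 2.59 ± 0.22 and 1.29 ± 0.22 at 48 h, and 1.83 ± 0.22 and 0.68 ± 0.22 at 24 h, for the high and the low dose in turn (adjusted p = 1.22e-07, 0.000399, 7.58e-06 and 0.0353).

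ATG7, which encodes the enzyme that activates Atg8 proteins for lipid attachment, was 4.74, 4.07 and 4.08 with the high dose at 48 h and 4.69, 5.89 and 4.95 with the low dose, against 7.03, 6.89 and 7.22 in the controls. At 24 h it was 4.72, 4.75 and 4.55 with the high and 5.83, 6.19 and 5.58 with the low dose, against 7.18, 7.47 and 7.37 in the controls. Every treated array was below its controls, with differences of -2.75 and -1.87 at 48 h and -2.67 and -1.47 at 24 h for the high and the low dose in turn. A second probe set fell as well (-2.82 to -1.73), but another was not called in any of the 4 groups (-0.121 to 0.29). WIPI1 was 6.77, 6.80 and 6.69 with the high dose at 48 h and 7.47, 8.05 and 7.69 with the low dose, against 8.33, 8.56 and 8.94 in the controls. WIPI1 (-1.86 to -0.84), GLA (-1.06 to -0.56) and ATG5 (-1.01 to -0.42) were lower in all 4 Aa groups.

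ATP6V1A was 11.35, 11.25 and 10.92 with the high dose of Aa at 48 h, against 12.37, 12.39 and 12.01 in the controls, a fall of 1.09. The control and the treated arrays did not overlap. ULK1 was 6.41, 5.52 and 6.87 with the high dose at 48 h, against 5.40, 5.03 and 4.82, and CTSL was 10.29, 10.15 and 10.32, against 9.19, 8.93 and 9.37. Both rose, by 1.18 and 1.09, and BECN1 and MAP1LC3B rose by 1.06 and 1.07. LAMP2 fell by 0.78 on its brightest probe set, while another probe set rose by 0.98, and HEXA fell by 0.40, while a dim probe set of it rose by 1.54. Between the doses at 48 h, 5 genes were higher and 9 lower with the high dose, 46.7% against 44.8% of all genes, 20.3% higher and 24.5% lower, with MCOLN1 at 1.30 and WIPI1 at -0.98. At 24 h 5 were higher and 1 lower, 20% against 26.4% of all genes, 16.6% higher and 9.79% lower, with MCOLN1 at 1.16 and ATG7 at -1.20. That count fell to 3 without high dose replicate 1 or low dose replicate 2, and the replicate block raised it to 11. The share of all genes called in those fits is not given here.

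**Figure D5:**
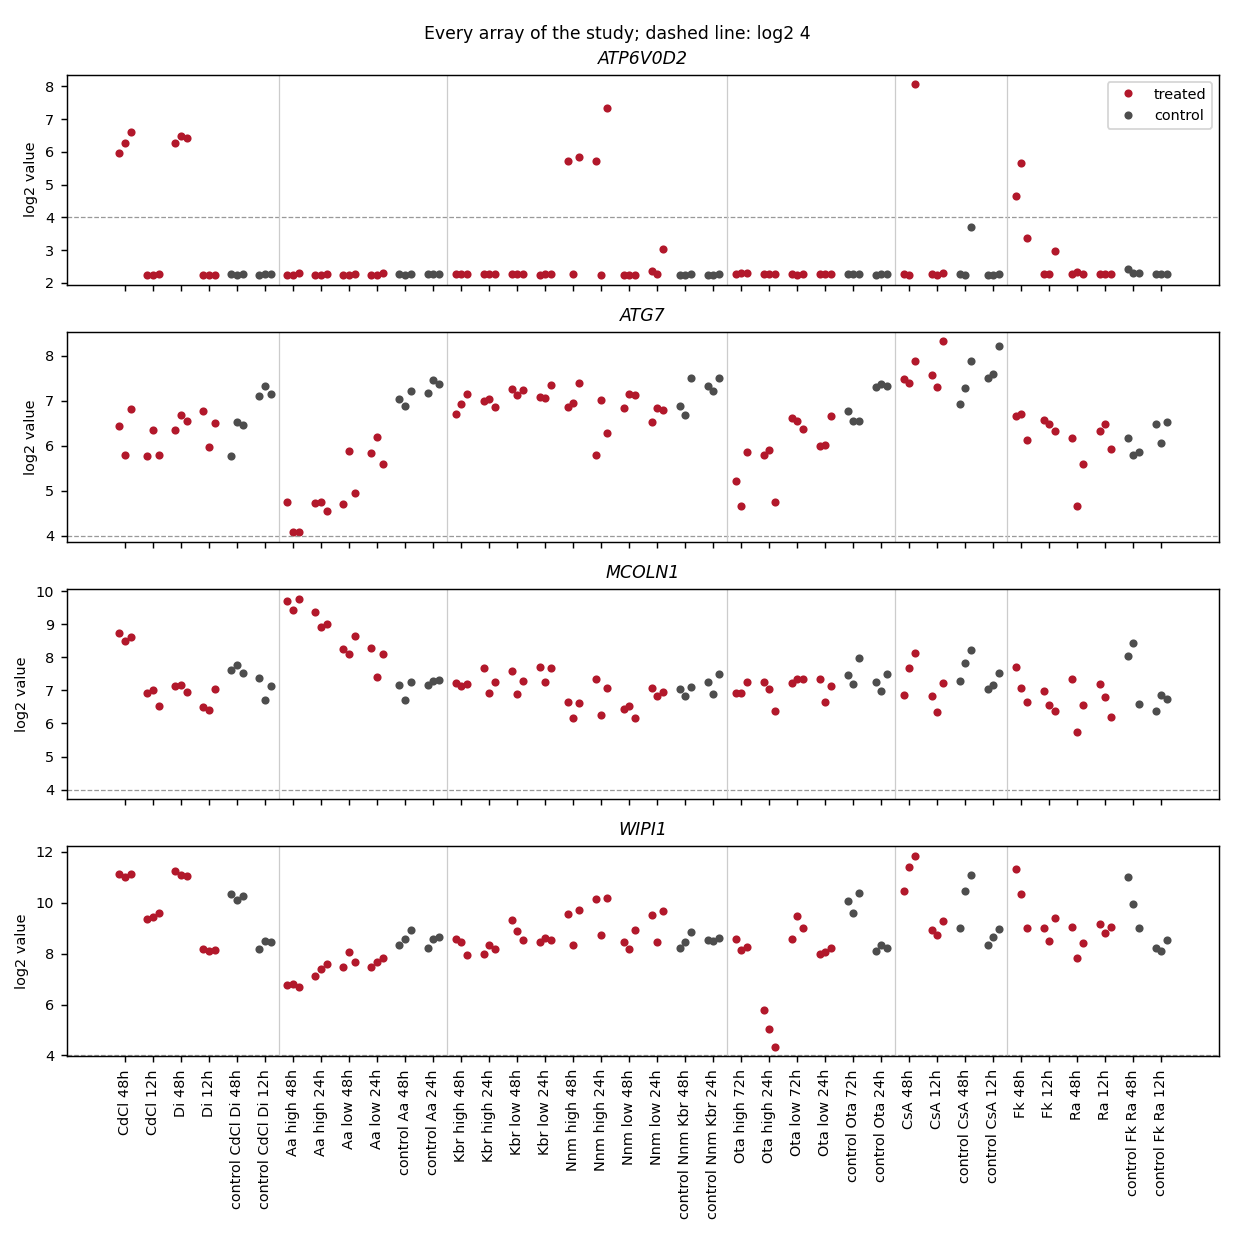
Log2 level on every array for ATP6V0D2, ATG7, MCOLN1 and WIPI1, with 3 points per group, treated groups in red and controls in grey, and vertical lines between control families. ATP6V0D2 leaves background with CdCl and Di at 48 h and on some arrays of Nnm, Fk and CsA, and MCOLN1 is highest with the high dose of Aa at 48 h (9.44 to 9.77).

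With Kbr, SQSTM1 showed the largest rises. At the high dose 4 of the 31 genes rose and 6 fell at 48 h, 32.3% against 51.1% of all genes, 22.2% higher and 28.9% lower. At 24 h 3 rose and 4 fell, 22.6% against 21.6%, 8.17% higher and 13.4% lower. At the low dose 4 rose and 5 fell at 48 h, 29% against 29.4%, 15.2% higher and 14.3% lower, and limma called 0 at 24 h, against 1.36% of all genes, with 5 at an unadjusted p under 0.05 and 1 under the replicate block. The 7 calls of the high dose at 24 h fell to 2 without control replicate 2, to 3 without control or Kbr replicate 1, and to 4 without Kbr replicate 3. The collagen gene COL1A1 was lower in all 4 Kbr groups, with differences of -2.71 and -2.01 for the high dose at 48 and 24 h and of -2.04 and -1.23 for the low dose. Of the 7 epithelial markers 4 fell with the high dose at 48 h, 2 with it at 24 h and 2 with the low dose at 48 h, and 0 rose. The part of these markers in the results was not tested. SQSTM1 was 13.17, 12.63 and 12.70 with the high and 13.62, 13.03 and 13.05 with the low dose at 48 h, against 11.55, 11.19 and 11.59 in the controls. No treated array overlapped the controls, and the rises were 1.39 ± 0.42 and 1.79 ± 0.42. At 24 h the high dose gave 12.92, 12.45 and 12.57, against 11.33, 11.06 and 11.42 in the controls, a rise of 1.38.

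GABARAPL1 was 9.21, 9.03 and 9.11 with the high dose of Kbr at 48 h, against 7.88, 7.98 and 8.02 in the controls, a rise of 1.16. ATP6V1A was 11.36, 11.20 and 11.08, against 12.31, 12.36 and 12.13, a fall of 1.05, and HEXA was 9.43, 9.22 and 9.17, against 10.23, 10.07 and 10.00, a fall of 0.83. NBR1, which encodes an autophagy receptor related to p62, was 9.34, 9.20 and 9.19, against 9.81, 10.03 and 10.03, a fall of 0.71. The treated arrays of these 4 genes all lay outside the control range. GLA and ATP6V1C1 rose by 0.94 and 0.96 at the same dose and time, and NPC2, GABARAPL2 and BECN1 fell by 0.35 to 0.65. Between the doses limma called 0 of the 31 at 48 h and 0 at 24 h, against 8.03% and 0.0544% of all genes, with 4 and 2 at an unadjusted p under 0.05. At 48 h 1 gene was called under the replicate block, and also without high dose replicate 1.

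With Nnm the replicates did not respond alike. Replicate 2 was the lowest for ULK1 and CTSB in all 4 Nnm groups, and on the 6 arrays numbered 2 of Nnm and its controls the ACTB difference was 1.14 to 1.22, against 0.789 to 1.02 on the other 12. Its part in these results was not tested. At the high dose 6 of the 31 genes rose and 2 fell at 48 h, 25.8% against 27.7% of all genes, 15.4% higher and 12.3% lower. At 24 h 9 rose and 2 fell, 35.5% against 35.9%, 17.6% higher and 18.4% lower. The 6 and the 9 that rose include ATP6V0D2, which entered the test only through arrays of these groups where it was high. At the low dose 1 rose and 1 fell at 48 h, 6.45% against 14.1%, 8.39% higher and 5.73% lower, and 3 rose and 1 fell at 24 h, 12.9% against 18.5%, 9.39% higher and 9.13% lower. With the replicate block, which this family supports, these 4 counts were 14, 18, 10 and 11 in place of 8, 11, 2 and 4. The counts also turned on single arrays. Without Nnm replicate 2 they were 12, 17, 5 and 7 in the same order. For the high dose at 48 h the count was 3 without Nnm replicate 1 or 3 and 5 without any 1 control, and at 24 h it was 5 without Nnm replicate 1, 6 without Nnm replicate 3 and 7 without control replicate 3. For the low dose at 48 h it was 1 without Nnm replicate 1 or 3 or control replicate 2 or 3, and at 24 h 2 without Nnm replicate 1 or control replicate 3. The share of all genes called with the block or without an array is not given here. The counts from those fits thus have no background beside them.

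ATP6V0D2 was 5.73, 2.26 and 5.84 with the high dose of Nnm at 48 h, against 2.25, 2.26 and 2.27 in the controls. At 24 h it was 5.71, 2.26 and 7.35 with the high dose, against 2.25, 2.25 and 2.27 in the controls. Replicate 2 was at background both times, and replicates 1 and 3 were not. The gene entered this family's test only through those 4 arrays. Its fitted differences were 2.35 and 2.85 with replicate 2, and 3.52 and 4.27 without it, which had to be larger since that replicate was at background. With the low dose it stayed between 2.25 and 3.03.

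CTSB was 12.69, 10.34 and 12.16 with the high dose at 48 h, against 10.57, 10.06 and 10.41 in the controls, so that replicate 2 lay within the control range. The difference was 1.38 ± 0.44 (adjusted p = 0.0243), and 2.08 without replicate 2 (adjusted p = 0.000267). ULK1 was 8.07, 5.41 and 7.63 with the high dose at 24 h, against 5.55, 4.96 and 5.11 in the controls, a difference of 1.83, or 2.65 without replicate 2. Since replicate 2 was the lowest for CTSB and ULK1, their differences had to be larger without it. Other members rose on every array. GABARAPL1 at 24 h was 9.55, 8.31 and 9.59 with the high dose, against 7.85, 7.76 and 7.77 in the controls, and NBR1 was 11.13, 10.53 and 11.01, against 9.71, 9.61 and 9.60. They rose by 1.35 and 1.25.

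CTSL rose by 1.31 at 48 h and by 0.84 at 24 h with the high dose of Nnm. ATP6V1D was lower in all 4 Nnm groups (-0.81 to -0.46), with 10.67, 10.87 and 10.67 at the high dose at 48 h, against 11.13, 11.40 and 11.36 in the controls. HEXA at 48 h was 9.61, 9.94 and 9.41, against 10.23, 10.07 and 10.00, a fall of 0.45, and all its treated arrays lay below the controls. ATG7 fell at 24 h by 0.99, with 5.80, 7.01 and 6.27 at the high dose, against 7.33, 7.22 and 7.51 in the controls. Between the doses of Nnm limma called 0 of the 31 genes at 48 h and 0 at 24 h, against 0% of all genes both times, with 1 and 4 at an unadjusted p under 0.05. Without high dose replicate 2 these counts were 3 and 11.

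At the high dose of Ota the share of these genes called was close to that of all genes at both times. At this dose 9 of 30 genes tested rose and 9 fell at 72 h, 60% against 63.2% of all genes, 25.3% higher and 37.9% lower. At 24 h 10 rose and 10 fell, 66.7% against 65%, 21.4% higher and 43.6% lower. At the low dose 0 rose and 2 fell at 72 h, 6.67% against 16%, 9.01% higher and 7.02% lower, and 2 rose and 2 fell at 24 h, 13.3% against 13.7%, 3.72% higher and 9.99% lower. The low dose counts rested on single arrays: at 72 h they were 0 without control replicate 1 or 3 or Ota replicate 1 or 3, and 1 without control replicate 2. At 24 h they were 0 without control replicate 3 or Ota replicate 1 or 2, and 2 without control replicate 1 or 2. Most genes fell slightly with the high dose at 24 h, with a median of -0.288 over all genes, and quantile normalization moved that median by 0.214. At 72 h the ACTB difference was 1.66 to 2.30 with the high dose, above the 1.16 to 1.51 of the controls. Of the 7 epithelial markers 4 fell and 0 rose with the high dose at 72 h and at 24 h, and COL1A1 fell by 2.04 at 24 h. Their part in these results was not tested.

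WIPI1 was 8.57, 8.13 and 8.28 with the high dose of Ota at 72 h, against 10.09, 9.59 and 10.40 in the controls. At 24 h it was 5.79, 5.02 and 4.33, against 8.12, 8.35 and 8.22. The differences were -1.70 ± 0.30 at 72 h and -3.18 ± 0.30 at 24 h, and no arrays overlapped. ATP6V1D fell by 2.09 at 72 h and fell by 1.94 at 24 h, with 9.25, 8.06 and 9.33 at 72 h, against 11.03, 10.80 and 11.09 in the controls. ATP6V1B2 went in opposite directions at the times. It was 10.85, 10.47 and 11.34 at 72 h, against 9.77, 9.92 and 9.90 in the controls, and 7.66, 6.81 and 8.04 at 24 h, against 10.13, 10.16 and 10.07. The differences were 1.02 at 72 h and -2.62 at 24 h (adjusted p = 0.00178 and 1.84e-07).

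HEXA, NPC1 and ATP6V1C1 were likewise called in opposite directions. HEXA changed by -0.93 at 72 h and 0.54 at 24 h, NPC1 by 0.66 and -1.14, and ATP6V1C1 by 0.86 and -0.68. A dim probe set of HEXA at 72 h (2.69) and a dim one of NPC1 at 24 h (3.05) went against these values. ATP6V0E1 was 13.71, 13.65 and 13.75 with the high dose at 72 h, against 12.25, 12.40 and 12.51 in the controls, and ATP6V1H was 11.11, 11.18 and 10.96, against 9.86, 9.74 and 9.70. Both rose, by 1.32 and 1.31, with all treated arrays above the controls.

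MAP1LC3B was 11.87, 11.94 and 11.67 with the high dose of Ota at 24 h, against 10.74, 10.71 and 10.75 in the controls, a rise of 1.09. CTSB and CTSL rose there by 1.03 and 0.92, and NBR1 (-1.79), ATG7 (-1.86) and SQSTM1 (-0.99) fell. Another probe set of SQSTM1 rose by 1.32 in that comparison (adjusted p = 1.97e-06). CTSD and CTSA fell at 72 h, by 1.35 and 0.86. Between the doses 7 genes were higher and 8 lower with the high dose at 72 h, 50% against 57.8% of all genes, 20.9% higher and 37% lower. At 24 h 9 were higher and 9 lower, 60% against 58.9%, 19.6% higher and 39.4% lower. The difference was -2.10 for ATP6V1D at 72 h and -3.04 for WIPI1 at 24 h.

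The 3 compounds CsA, Fk and Ra gave few calls among these genes, as among all genes. For CsA, limma called 0 of 30 genes tested at 48 h and 0 at 12 h, against 0.00925% and 0% of all genes, with 5 and 0 at an unadjusted p under 0.05. That fit did not use the replicate number, although same-numbered CsA arrays deviated together (lowest pair correlation 0.534). For Fk limma called 0 at 48 h and 0 at 12 h, against 0% and 0.00918%, with 2 and 3 at an unadjusted p under 0.05. Ra gave 4 lower calls at 48 h, 13.3% against 9.33% of all genes, 1.87% higher and 7.46% lower, and 0 at 12 h, against 0.0367%, with 4 at an unadjusted p under 0.05. ATP6V1C1 was 11.58, 10.36 and 10.51 with Ra at 48 h, against 11.91, 12.08 and 11.81 in the controls, a fall of 1.12 ± 0.23 (adjusted p = 0.0167). MAP1LC3B was 11.70, 11.29 and 11.57, against 12.55, 12.50 and 12.01, and ATP6V1D was 11.47, 10.78 and 11.35, against 12.01, 11.89 and 11.77. The Ra arrays lay below the control ranges, and the falls were 0.83 and 0.69.

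Replicate 2 of Ra at 48 h stood apart, with an upper quartile of 6.09 against 6.89 and 7.02 on the other Ra arrays. Quantile normalization moved the median of all genes in that comparison by 0.204, from a value of -0.194. Without that array 1 call remained, without Ra replicate 1 there were 15, without control replicate 3 there were 7, and without control replicate 1 or 2 there were 0. ATP6V0D2 was not tested in these families, since too few arrays exceeded log2 4. It was 2.27, 2.25 and 8.07 with CsA at 48 h, against 2.28, 2.25 and 3.70 in the controls, and 4.64, 5.67 and 3.36 with Fk at 48 h, against 2.44, 2.29 and 2.29 in the controls. All 3 Fk arrays thus lay above the controls, and with CsA replicate 3 alone did. With Ra at 48 h it stayed at 2.26, 2.32 and 2.27.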

How the data were processed

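The values analysed are log2 signals of 54675 probe sets on 114 arrays, deposited by the authors after GCRMA normalization of all arrays together, per the submitters' processing notes. The GCRMA version is not given in the sources used here. Of the probe sets, 41091 carry 1 gene symbol, and each gene was read from the probe set with the highest mean. The number of arrays limits the precision. The 31 members and the other lists were chosen with earlier results of these data known.

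For each control family, a limma 3.58.1 model of group means with empirical Bayes was fitted in R 4.3.3. A gene was tested when it exceeded log2 4 on at least 3 arrays of the family, and called at a Benjamini-Hochberg adjusted p under 0.05 over all genes. The code was tested on simulated data with known shifts. Values on each array are given for members called in the CdCl and Di comparisons at 48 h and for the 3 largest rises and falls of each other compound, and at most 2 genes are named per further list and comparison.

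Same-numbered arrays deviated together in every pair of the CsA, Aa and Nnm with Kbr families (lowest pair correlation 0.534, 0.28 and 0.139). This did not hold for every pair in the other families. The correlations ran from -0.274 to 0.16 with CdCl and Di, -0.0542 to 0.409 with Ota, and -0.176 to 0.76 with Fk and Ra. Their medians were -0.0485, 0.194 and 0.202. The replicate block is therefore given beside results of the first 3 families where it moved a count by over 1.5 times. Counts from the block or without an array have no share of all genes beside them. Alternatives were other filters, other probe set rules, quantile normalization, a trended spread, other sets of arrays in the fit, and leaving out each array.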

Additional observations from a re-analysis of the deposited data

Results flagged for a closer look

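The responses to CdCl and Di that differed between 48 and 12 h, each against its own controls and tested as a difference of differences with limma, are given in full, in log2 units as 48 h minus 12 h. With CdCl the response was higher at 48 h for ATP6V0D2 (4.04), CTSD (1.45), ATG7 (1.31), MCOLN1 (1.24), CTSA (0.74), HEXA (0.62), CTSB (0.51), ATP6V0D1 (0.38) and LAMP1 (0.37). It was lower at 48 h for MAP1LC3B (-0.58), ATP6V1C1 (-0.57), SQSTM1 (-0.37) and NPC2 (-0.26). With Di it was higher at 48 h for ATP6V0D2 (4.14), CTSL (2.07), ULK1 (1.18), WIPI1 (1.12), SQSTM1 (1.09), ATG7 (1.05), CTSD (1.01), GLA (1.01), MAP1LC3B (0.79), ATG5 (0.75) and GABARAPL1 (0.74). NPC1 (0.68), ATP6V1H (0.66), CTSB (0.61), NBR1 (0.59), ATP6V1C1 (0.37) and LAMP1 (0.27) were also higher at 48 h with Di, and CTSZ (-0.99), ATP6V1A (-0.37) and NPC2 (-0.29) were lower. Both compounds were set against the same controls, so their lists are not independent. For ATG7, the arrays at 48 h overlapped the controls with either compound, while those at 12 h lay below them. Without the probe sets whose names end in _x_at or _s_at, ATG7 gave -1.28 with CdCl and -0.92 with Di. ATP6V0D2 was at background in all controls and on all arrays at 12 h and was tested only through its treated arrays at 48 h, so it had to differ. For SQSTM1 with CdCl, the mean of all probe sets gave 0.026.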

How the results depend on the processing

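Values below are numbers of the 31 genes called. The share of all genes called is not given for these settings, so these counts have no background beside them. With 3 arrays a group and a spread shared within a family, small changes near background cannot be told from noise, and a gene read from 1 probe set can miss other transcripts. The count over all 26 comparisons with controls (211) ranged from 202 to 238 when any 1 array was left out, that for CdCl at 48 h (22) from 21 to 23, for Di at 48 h (21) from 19 to 21, for CdCl against Di (16) from 15 to 17 at 48 h and (15) from 12 to 14 at 12 h, for the change of response with time (33) from 25 to 36 and for dose (53) from 47 to 65. Single comparisons that moved by over 1.5 times were Di at 12 h (2 to 6), Kbr high at 24 h (2 to 7), Nnm low at 24 h (2 to 7) and 48 h (1 to 5), Nnm high at 24 h (5 to 17) and 48 h (3 to 12), Ota low at 24 h (0 to 3) and 72 h (0 to 2), Ra at 48 h (0 to 15), and the dose comparisons of Aa at 24 h (3 to 5), Kbr at 48 h (0 to 1) and Nnm at 24 h (0 to 11) and 48 h (0 to 3). Among the refits of single called genes without 1 array, 1816 kept the call, 350 lost it and 0 changed sign. Of the reported calls, 17 of 22 for CdCl and 7 of 21 for Di at 48 h, and 7 of 16 between them, held under every alternative run.

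With every array in 1 fit, which shares 1 spread over all families, the counts were 8 for Di at 48 h, 7 for CdCl against Di at 48 h, 7 for the change with time (3 for CdCl, 4 for Di), 10 for CdCl at 12 h, 0 for Di at 12 h, 3 and 7 for Aa low at 24 and 48 h, 1 for Kbr low at 24 h, 5 for Nnm low at 48 h, 0 for Ota low at 72 h, 3 for CsA at 48 h, and 1 and 12 for Ra at 12 and 48 h. With only the arrays of the comparison they were 0 for Di at 12 h, 2 and 12 for Kbr low and high at 24 h, 1 for Nnm low at 48 h, 1 and 0 for Nnm high at 24 and 48 h, 8 for Ota low at 72 h, 4 and 0 for Ra at 12 and 48 h, 3 for the dose of Aa and 11 for that of Ota at 24 h. With the replicate block they were 3 for Di at 12 h, 10 for Aa low at 24 h, 1 for Kbr low at 24 h, 11 and 10 for Nnm low at 24 and 48 h, 18 and 14 for Nnm high at 24 and 48 h, 4 for Ota low at 72 h, 11 for the dose of Aa at 24 h and 1 for that of Kbr at 48 h. The block moved no other count by over 1.5 times. In the fit of every array, the 8 calls for Di at 48 h were 8 higher and 0 lower. The 7 for CdCl against Di at 48 h were 6 higher and 1 lower. Why the counts changed across these fits was not tested.

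With no filter, Nnm low at 48 h gave 1 and Ota low at 24 h gave 2. With the mean of all probe sets, Nnm low at 48 h gave 5, Fk at 48 h 1 and the dose of Kbr at 48 h 1. Without probe sets whose names end in _x_at or _s_at, 24 of the 31 genes were left, and the counts were 124 against controls, 12 for Di at 48 h, 19 for the change with time (8 for CdCl, 11 for Di), 31 for dose, 9 for CdCl at 12 h, 5 and 7 for Aa low and high at 48 h, 4 for Kbr low at 48 h, 4 and 6 for Kbr high at 24 and 48 h, 2 for Nnm low at 24 h, 5 and 5 for Nnm high at 24 and 48 h, 2 and 1 for Ota low at 24 and 72 h, 12 for Ota high at 24 h, 1 for Ra at 48 h, and 1 and 7 for the dose of Aa at 24 and 48 h.

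Directions that reversed did so through the probe sets. With the mean of all probe sets the log2 differences were 0.011 for NBR1 with CdCl at 12 h, -0.026 for ATP6V0E1 with Di at 12 h, 0.16 for LAMP2 with Aa low and 0.19 with Aa high at 48 h, 0.31 and 0.29 for HEXA with Aa high at 24 and 48 h, 0.13 and 0.45 for HEXA with Ota low and high at 72 h, 0.36 for NPC1 with Ota high at 24 h, 0.30 for LAMP2 and -0.0062 for NPC1 between CdCl and Di at 48 h, and 0.026 for SQSTM1 as the change with time for CdCl. Between doses they were 0.028 for LAMP2 and 0.59 for NPC1 with Aa at 48 h, 0.55 for NPC1 with Ota at 24 h, and 0.32 for HEXA and 0.018 for SQSTM1 with Ota at 72 h. Without the _x_at and _s_at probe sets ATG7 was 0.26 with CdCl at 12 h, 0.29 and 0.042 with Aa low and high at 24 h, 0.29 with Ota low at 24 h, and -1.28 and -0.92 as the change with time for CdCl and Di. ATP6V1C1 was -0.36 and -0.069 with Di at 12 and 48 h. HEXA was 1.59 and 1.54 with Aa high at 24 and 48 h and 0.98 and 2.69 with Ota low and high at 72 h, and between the doses of Ota -0.20 at 24 h and 1.71 at 72 h. SQSTM1 was 1.32 and 0.18 with Ota high at 24 and 72 h, and between doses 0.26 with Aa at 48 h and 0.99 and 0.45 with Ota at 24 and 72 h.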
